A study of Mus musculus with 4 samples.

Results

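The genes described here are 38 genes of S phase and DNA replication, taken as a list of gene names whose rule used no measured value, although it was drawn up with earlier results of these data known, out of 18695 genes in single-cell RNA profiles of mouse bone marrow. All 38 were found in the deposited matrix. The profiles came from mice in which Tet2 had been deleted in blood cells (Mx1-Cre Tet2 fl/fl, Tet2 KO) and from Cre-negative Tet2 fl/fl littermates (control), aged 8 to 12 weeks. All mice, controls included, had received 4 doses of 12.5 ug/g of pI:pC, a double-stranded RNA mimic that induces interferon and through it the Mx1 promoter that drives Cre. That promoter is not restricted to blood cells, so loss of Tet2 in other tissues of the KO animals cannot be told apart from loss in the profiled cells. From each genotype 1 library held granulocyte-monocyte progenitors (GMP; Lin- cKit+ Sca1- CD34+ CD16/32+) and 1 library held a sort labelled Lin-/CD11b+, so each genotype and sort had a single library. No test between genotypes was therefore possible, no p-value was computed, and every interval below is a 95% interval for counting error alone.

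Before a cell copies its genome, the MCM2-7 helicase is loaded onto origins in G1 (licensing), and in S phase Cdc45 and the GINS complex join it so that it can unwind DNA. DNA polymerase alpha-primase starts each new strand, the clamp loader RFC places the ring-shaped clamp PCNA on it, and the replicative polymerases, flap nuclease and repair enzymes work on that clamp, fed by ribonucleotide reductase and thymidylate synthase. Most of these genes are transcribed from late G1 under E2F transcription factors, and their summed RNA is widely used to score S phase in single cells. Myeloid progenitors of the bone marrow divide quickly, and granulocytes and plasma cells stop dividing as they mature.

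The promoters of the listed genes were read first, because a shared E2F control is the property for which the genes are known and the list did not use it. RefSeq promoter windows of mouse build GRCm38.p6, from 250 bases before to 50 bases after the transcription start, matched 28 of the 38 genes. The E2F site was searched in the 250 bases before the start as TTTCCCGC, TTTGGCGC, TTTCGCGC or TTTGCCGC on both strands, where sites on opposite strands may overlap. It occurred in 8 of 28 listed genes (28.6%) and in 583 of 27025 genes with a window (2.16%). Over the whole 300 bases it occurred in 46.4% of the listed genes and 2.60% of all genes. The CCAAT box (CCAAT, both strands) occurred before the start in 20 of 28 listed genes (71.4%) and in 37.5% of all genes. Short stretches around the matches, 38 to 121 bases long, are printed here from the windows of 6 genes that take part in the comparisons below. They run 5′ to 3′ on the strand of the gene, with the E2F letters in capitals and flanks in lower case. They are Mcm5 (chr8:75109326-75109387, plus strand), Mcm6 (chr1:128359725-128359845, minus), Mcm7 (chr5:138172021-138172078, minus), Hells (chr19:38930898-38930955, plus), Cdca7 (chr2:72476118-72476175, plus) and Dtl (chr1:191575545-191575582, minus).
Mcm5: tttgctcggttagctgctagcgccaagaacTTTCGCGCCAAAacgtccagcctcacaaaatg
Mcm6: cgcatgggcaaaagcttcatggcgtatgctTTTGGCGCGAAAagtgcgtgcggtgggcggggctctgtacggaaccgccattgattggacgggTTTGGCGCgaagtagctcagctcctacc
Mcm7: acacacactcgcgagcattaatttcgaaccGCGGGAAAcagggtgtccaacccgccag
Hells: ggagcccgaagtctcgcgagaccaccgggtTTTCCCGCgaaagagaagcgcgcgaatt
Cdca7: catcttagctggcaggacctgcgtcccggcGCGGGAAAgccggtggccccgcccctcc
Dtl: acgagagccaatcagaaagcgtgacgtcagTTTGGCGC
In Mcm5 and in the upstream block of Mcm6 a match on each strand overlapped the other. A match is a description of letters in a window and not a measured binding site, and the other 2 genes with a match before the start were Cdc6 and Pola1.

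The 4 libraries held 1258 control and 2719 Tet2 KO cells of the GMP sort and 1924 control and 3068 Tet2 KO cells of the sort labelled Lin-/CD11b+. Their depth was 22681380 to 42561110 unique molecular identifiers (UMIs, each a captured RNA molecule), with a median of 18713, 15488, 11092 and 10417 UMIs per cell in that order. Between 4 and 8 cell barcodes were shared by any pair of libraries. The level of Tet2 checks nothing, since 3' tags can lie outside the deleted exons: it stood at 13.02 and 16.99 counts per 1000000 UMIs (CPM) in the control and KO of the GMP sort, and at 13.4 and 20.7 CPM in the other sort. The study's own sample table exchanges the cell numbers of the control Lin-/CD11b+ and KO GMP libraries, and the deposited assignment was used here. Under it Rpgrip1 stood at 0.743 and 4.41 CPM in the control libraries and at 34.4 and 35.5 CPM in the KO libraries.

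The 38 genes together made up 3422 CPM (3398 to 3446) in control GMPs, 3332 CPM in Tet2 KO GMPs, 3153 CPM in control Lin-/CD11b+ cells and 3197 CPM in Tet2 KO Lin-/CD11b+ cells. The sums of the 4 libraries lay within a narrow range. Pclaf, the small PCNA-associated factor, was the most abundant of the genes in every library, at 351, 405, 454 and 485 CPM in the same order. Exo1, an exonuclease of mismatch repair, was the least abundant at 14.1, 12.5, 9.61 and 11.9 CPM in every library. These are 3' tag counts of molecules, which do not grow with transcript length.

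The spread over cells was far wider than the spread over libraries. The share of a cell's UMIs that fell on the 38 genes had a median of 0.335% in control GMPs, 0.323% in Tet2 KO GMPs, 0.295% in control and 0.296% in KO Lin-/CD11b+ cells. Its quartiles were 0.228% and 0.440% in control GMPs, and 0.136% and 0.470% in control Lin-/CD11b+ cells, where the highest cell reached 1.24%. The Lin-/CD11b+ sort thus held more cells low in these genes and also the cells highest in them. With each cell thinned to 5000 UMIs, UMIs of at least 10 of the 38 genes were seen in 67.7% of control GMPs (65.1 to 70.3%) and 67.9% of KO GMPs, and in 53.6% and 53.3% of control and KO Lin-/CD11b+ cells. Without thinning the shares were 94.2%, 95.9%, 74.2% and 72.1%. In plasma-like cells, the type with the lowest summed level, the thinned share was 10.6% in the control and 16.1% in the KO. Their median depths were 14551 and 12984 UMIs. How far free RNA or cells still in the cycle make up these shares was not tested.

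Across genotypes the summed level of the 38 genes was nearly level in both sorts, and the direction depended on the scaling. The log2 ratio of Tet2 KO over control was -0.04 (-0.05 to -0.03) for GMPs. For Lin-/CD11b+ cells it was 0.02 (0.01 to 0.03). With TMM scaling factors, which centre the bulk of genes, these became 0.02 and -0.06. All 38 genes had at least 100 UMIs in both comparisons. In the GMP sort 0 of them were at least 25% higher in the KO (4.28% of all genes tested) and 1 was lower by the same fold, that is, by at least 20% (11.9% of all genes tested). In the Lin-/CD11b+ sort 0 were higher by that fold (17.3% of all genes) and 0 were lower (4.44% of all genes). With TMM factors 2 genes were higher and 0 lower in the GMP sort, and 0 were higher and 1 lower in the other. Shares over all genes were not computed with TMM factors, here or below, so these counts have no background.

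Within this flat sum Pcna, the sliding clamp, had the lowest ratio of the GMP sort. It was at 205 CPM in control GMPs, 162 in KO GMPs, 199 in control Lin-/CD11b+ cells and 188 in KO Lin-/CD11b+ cells. Its log2 ratio was -0.34 (-0.40 to -0.29) among GMPs and -0.08 (-0.14 to -0.03) in the other, and it was the single gene past that fold. The 6 MCM subunits summed to 639 CPM in control and 566 CPM in KO GMPs, a log2 ratio of -0.18 (-0.21 to -0.15), or -0.11 with TMM factors. Single genes of other roles lay in the same range there, with -0.25 for Ung, -0.23 for Ubr7 and -0.21 for Cdc45. In the Lin-/CD11b+ sort the sum was 523 and 518 CPM, a log2 ratio of -0.01 (-0.05 to 0.02).

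The MCM subunits, which act as a single hexamer, did not differ as 1 unit. Mcm6 was at 145, 123, 116 and 108 CPM in control GMPs, KO GMPs, control Lin-/CD11b+ and KO Lin-/CD11b+ cells, with log2 ratios of -0.24 and -0.11 in the sorts. Mcm2 was at 70.5, 58.6, 52.3 and 53.2 CPM, with ratios of -0.27 and 0.02. Mcm5 (130 and 114 CPM in the GMP sort) and Mcm7 (131 and 113 CPM) had ratios of -0.20 and -0.22 there. Mcm3, at 120 and 116 CPM, had a ratio of -0.06, and Mcm4, at 41.9 and 43.0 CPM, had a ratio of 0.04. In the GMP sort the intervals of Mcm2, Mcm5, Mcm6 and Mcm7 lay below 0, and those of Mcm3 and Mcm4 crossed 0. An interval below 0 was found for 13 of the 38 listed genes there. Such intervals were not counted over all genes, so this count has no background and is not a result about the list. The median log2 ratio over all genes tested was -0.05 in that sort.

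Other genes of the same list went the opposite way in the GMP sort. Pclaf, which binds the clamp, had a log2 ratio of 0.21 (0.17 to 0.25) there. Hells, a chromatin remodeller needed for normal DNA methylation, was at 93.4 CPM in control GMPs, 112 in KO GMPs, 86.2 in control and 96.2 in KO Lin-/CD11b+ cells, with ratios of 0.26 (0.19 to 0.34) and 0.16 (0.08 to 0.24). Cdca7, its partner, was at 140, 137, 100 and 92.2 CPM and had ratios of -0.03 and -0.12. Ccne2, the cyclin E2 that drives entry into S phase, was at 20.6, 25.7, 28.7 and 28.9 CPM and had a ratio of 0.32 (0.16 to 0.48) in the GMP sort. The 8 genes with an E2F match before the start did not share a direction in the GMP sort. Mcm5, Mcm6 and Mcm7 were lower and Hells was higher. Dtl had a ratio of -0.17, Cdc6 -0.16, Cdca7 -0.03 and Pola1 0.01. Pcna and Mcm2, with the lowest ratios of that sort, had no E2F match before the start. Of the remaining groups, the 5 repair genes summed to 178 and 161 CPM in the GMP sort, a ratio of -0.15 (-0.20 to -0.09), led by Ung, the uracil-DNA glycosylase, at 51.5 and 43.3 CPM. The 3 nucleotide synthesis genes (Rrm1, Rrm2 and Tyms) had a summed ratio of 0.03 (-0.01 to 0.07).

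In the Lin-/CD11b+ sort the gene ratios lay between -0.25 and 0.31. The lowest were Prim1, the catalytic primase subunit, at 47.0 CPM in the control and 39.6 CPM in the KO, Cdc45 at 39.5 and 33.8 CPM, and Dtl, a substrate receptor of the ubiquitin ligase that removes the licensing factor Cdt1, at 60.0 and 54.1 CPM. Cdc45 had nearly the same ratio in both sorts (-0.21 and -0.22), and Dtl did too (-0.17 and -0.15). The highest were Exo1 at 0.31 (0.07 to 0.55), the deubiquitinase Usp1 at 0.21 (0.11 to 0.32; 49.7 and 57.5 CPM) and the repressor E2f8 at 0.21 (0.06 to 0.36; 24.5 and 28.4 CPM). Gmnn, or geminin, which blocks repeat licensing, was at 159 and 165 CPM in the GMP sort and at 147 and 166 CPM in this one, with ratios of 0.05 and 0.18. Positive ratios were seen for 12 of 38 genes among GMPs and 23 of 38 in the Lin-/CD11b+ sort, and for 20 and 16 with TMM factors. Such signs were not counted over all genes. All genes tested were shifted the same way between the sorts. Their median log2 ratio was -0.05 among GMPs and 0.08 in the Lin-/CD11b+ sort, against -0.06 and 0.03 over the listed genes.

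**Figure D1:**
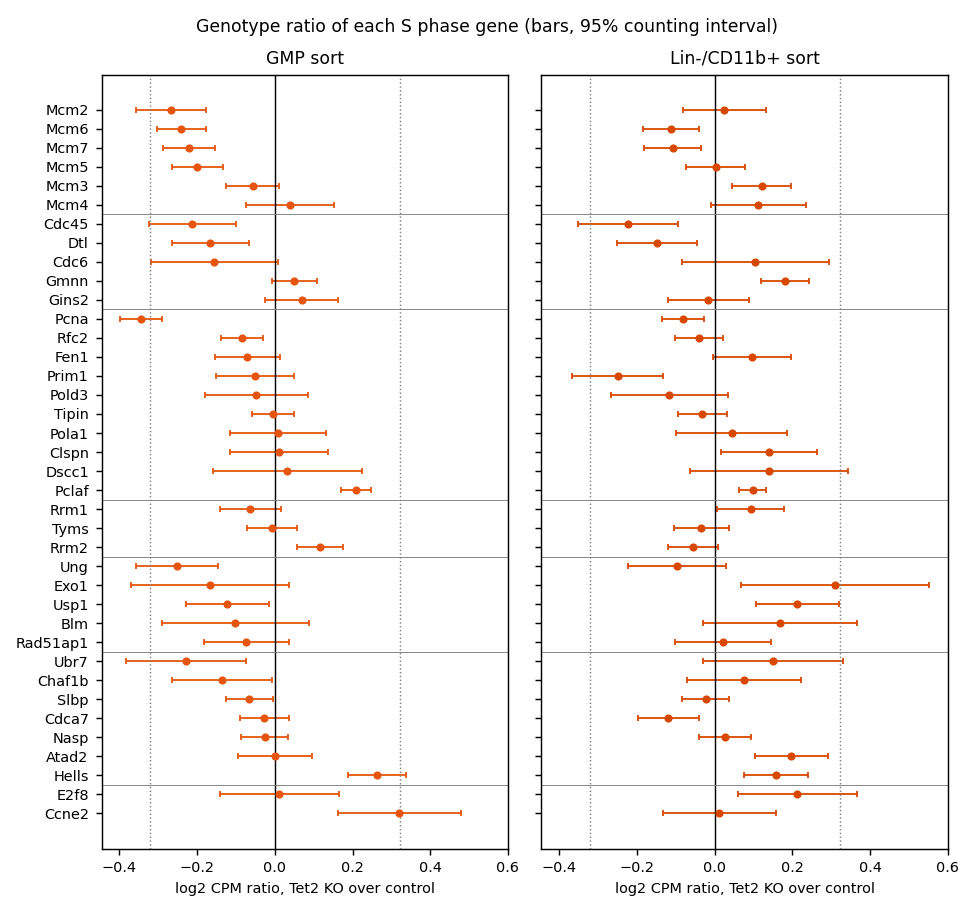
Log2 ratio of Tet2 KO over control in CPM for each of the 38 genes, in the GMP sort and in the Lin-/CD11b+ sort, with 95% intervals for counting error and 1 library per genotype and sort. In the GMP sort Pcna lies lowest at -0.34 and Ccne2 highest at 0.32; in the Lin-/CD11b+ sort the genes lie between -0.25 and 0.31.

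Cells were then assigned to types from marker genes, none of them on the list, and the 38 genes were summed per type and library. Among the 10 leading genes of each type 0 were listed genes, and 1390 cells lay close to a second type. The type names below are ranges cut from marker scores rather than sorted populations. Levels were highest in plasmacytoid dendritic cell-like (pDC-like) cells, at 5209 CPM (5067 to 5354) in the control and 5334 CPM in the KO. Monocyte-like cells stood at 4189 CPM in the control and 3338 CPM in the KO, and mono-biased GMP-like cells at 4089 and 4137 CPM in the Lin-/CD11b+ sort and 3877 and 3830 CPM in the GMP sort. Hematopoietic stem and progenitor-like (HSPC-like) cells stood at 3218 and 3102 CPM, and at 3548 and 3093 CPM in the GMP sort. In the GMP sort that name stands for sorted GMPs whose highest marker score was that of HSPC. Neutro-biased GMP-like cells stood at 2970 and 3127 CPM, and at 3112 and 3075 CPM in the GMP sort.

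Conventional dendritic-like (cDC-like) cells stood at 3036 and 2678 CPM, B-cell-like cells at 2735 and 3255 CPM and basophil-like cells at 2216 and 2757 CPM. The T/NK-like cells of the KO were at 2497 CPM, and the control had fewer than 50 of them. Neutrophil-like cells stood at 1502 CPM (1438 to 1568) in the control and 1968 CPM (1901 to 2037) in the KO. Plasma-like cells stood at 686 CPM (654 to 718) and 988 CPM (952 to 1026), the lowest level of any type in each genotype. In the 2 lowest types the granule transcripts typical of GMPs (Elane, Mpo and similar) moved with the listed genes: they were at 1041 and 2525 CPM in plasma-like cells and at 221 and 405 CPM in neutrophil-like cells of the control and KO. The part of free RNA in these levels was not tested.

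**Figure D2:**
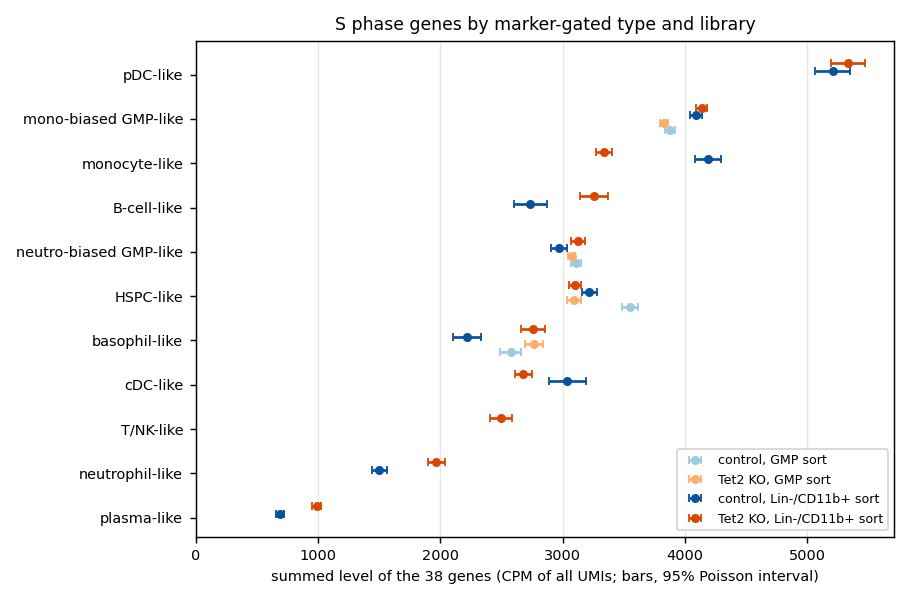
Summed CPM of the 38 genes in each marker-defined cell type, by sort and genotype, with 95% counting intervals and 1 library per point. The pDC-like cells lie highest at 5209 and 5334 CPM and the plasma-like cells lowest at 686 and 988 CPM.

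Single genes followed the order of the types to different degrees. Pclaf was at 1099 CPM in control and 1143 CPM in KO pDC-like cells, at 638 and 684 CPM in mono-biased GMP-like cells, at 291 and 273 CPM in HSPC-like cells and at 93.5 and 122 CPM in plasma-like cells of the Lin-/CD11b+ sort. Pcna spanned less, from 321 and 307 CPM in pDC-like cells through 251 and 243 CPM in the mono-biased GMP-like type to 50.1 and 61.5 CPM in plasma-like cells. Pclaf thus showed a wider span over the types than Pcna, the clamp it binds. E2f8, a repressor of E2F targets, did not follow the sum in basophil-like cells: it stood at 45.6 and 52.7 CPM there, near its level in pDC-like cells (47.1 and 42.8 CPM). In the basophil-like cells of the GMP sort it stood at 62.0 CPM in the control and 44.4 CPM in the KO, against 22.2 and 24.0 CPM in HSPC-like cells.

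**Figure D3:**
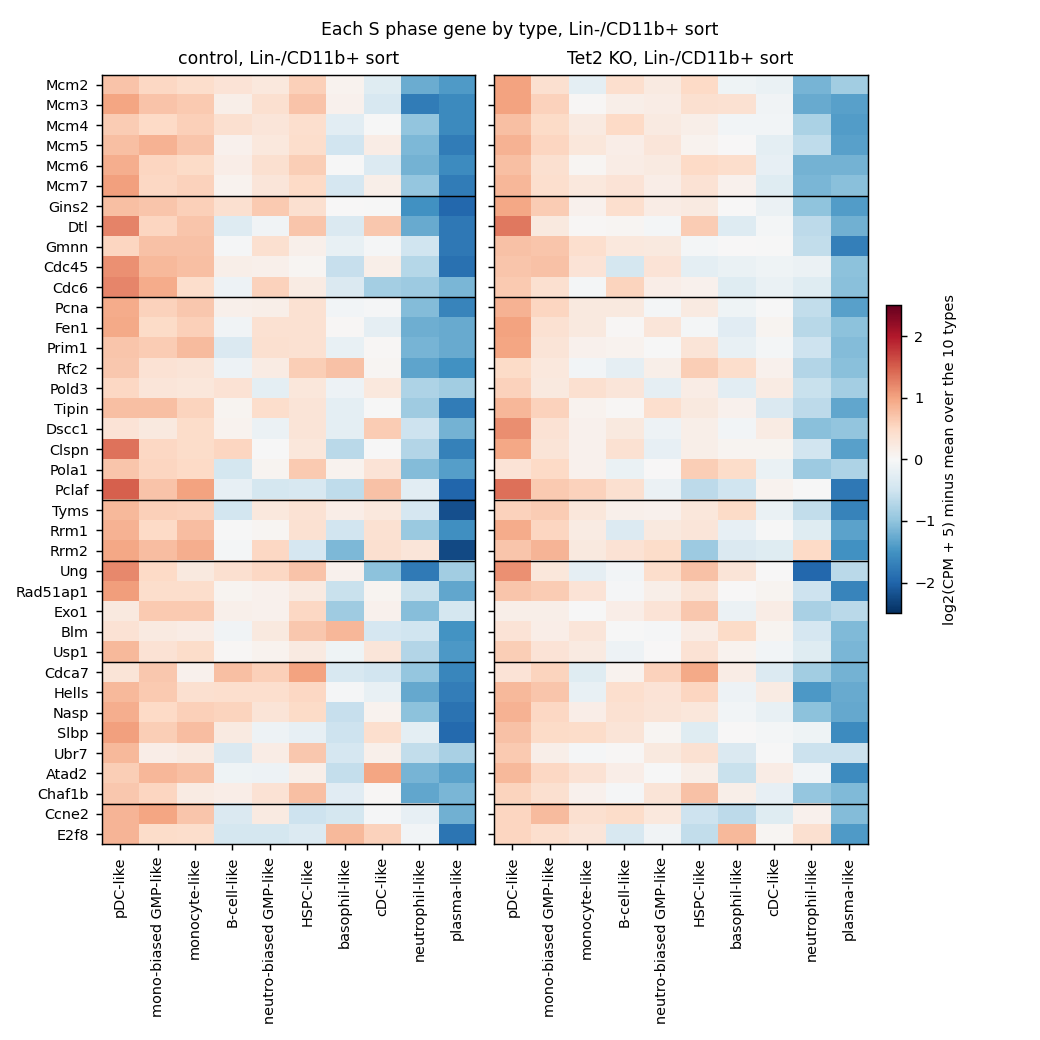
Heat map of the 38 genes (rows) over marker-defined types (columns) of the Lin-/CD11b+ sort, as log2(CPM + 5) minus the gene's mean over the types. Most genes are highest in pDC-like, mono-biased and, in the control, monocyte-like cells, and lowest in plasma-like cells. Pclaf, Rrm2 and E2f8 keep higher values than the MCM genes in neutrophil-like cells.

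The monocytic and granulocytic branches of the GMPs differed in the same direction in each library. The summed log2 ratio of mono-biased over neutro-biased GMP-like cells was 0.32 (0.29 to 0.34) in control GMPs, 0.32 in KO GMPs, 0.46 (0.43 to 0.50) in control Lin-/CD11b+ cells and 0.40 in KO Lin-/CD11b+ cells. At least 25% higher in the mono-biased cells were 11, 11, 21 and 20 of the 38 genes in these libraries, against 21.7%, 20.5%, 29.9% and 28.4% of all genes tested. The share of listed genes was close to the background in the GMP sort and above it in the other. The median log2 ratio was 0.24, 0.23, 0.33 and 0.38 over the listed genes and 0.02, 0.06, 0.07 and 0.12 over all genes tested. Past that fold in all 4 libraries were 8 genes, Atad2, Ccne2, Clspn, E2f8, Pclaf, Pola1, Slbp and Tyms. In 3 libraries there were Cdc45 and Rrm1, and in 2 there were Blm, Dscc1, Gmnn, Mcm3, Mcm5, Pcna, Pold3 and Rad51ap1. Cdc6, Dtl, Exo1, Gins2, Hells, Prim1, Rrm2, Tipin and Usp1 were past it in 1 library. The mitotic list had ratios of 0.64, 0.61, 0.78 and 0.55.

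Pclaf carried the largest ratio, with 522 CPM in mono-biased and 207 CPM in neutro-biased cells of control GMPs and 577 and 307 CPM in KO GMPs. Its log2 ratios were 1.34, 0.91, 1.17 and 0.80 over the 4 libraries, lower in the KO library of each sort. Clspn, a mediator of the replication checkpoint, was next in control GMPs with 0.82, and Ccne2 had 0.38, 0.36, 0.86 and 0.61 in the 4 libraries. Slbp, which binds the stem-loop of replication-dependent histone mRNA, had 0.47, 0.57, 0.77 and 0.45. Ung had ratios of -0.26, -0.21, -0.03 and -0.18, and Mcm2 -0.16, 0.04, 0.28 and 0.19. Ung and Mcm2 thus did not share the difference of Pclaf.

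Mono-biased GMP-like cells were also above HSPC-like cells in the sum, with log2 ratios of 0.13, 0.31, 0.35 and 0.42 in the 4 libraries. Ccne2 showed it in each of them: in control GMPs it was at 26.4 CPM in mono-biased and 15.2 CPM in HSPC-like cells, and in control Lin-/CD11b+ cells at 49.1 and 14.2 CPM. The pDC-like cells lay above the mono-biased cells by a log2 ratio of 0.35 in the control and 0.37 in the KO. Among HSPC-like cells, those with a UMI of the stem cell genes Hlf or Procr had 3142 CPM against 3729 CPM in the others of control GMPs, 3123 and 3083 CPM in KO GMPs, 2848 and 3371 CPM in control and 2926 and 3199 CPM in KO Lin-/CD11b+ cells. Their summed level was thus the lower one in 3 of 4 libraries, from 48, 53, 82 and 198 cells. The mitotic list did not follow it, at 2435 and 1788, 1642 and 1798, 2013 and 2067, and 1713 and 1562 CPM in the same order. Median depths were 21202 and 19599, 17017 and 16039, 10064 and 12742, and 8832 and 10496 UMIs, and their part was not tested.

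Along the granulocytic branch most listed genes differed between GMP-like and neutrophil-like cells, as did most of all genes tested. Neutro-biased GMP-like cells were above neutrophil-like cells by a summed log2 ratio of 0.98 (0.91 to 1.05) in the control and 0.67 (0.61 to 0.73) in the KO. Of the genes with enough UMIs, 26 of 29 were at least 25% higher in the control and 26 of 32 in the KO, where 69.7% and 55.4% of all genes tested were. The median over all genes was itself 0.96 and 0.45, and neutrophil-like cells give a large share of their UMIs to a few granule genes.

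Several genes lay well above that median and several were level between the 2 types. The genes with enough UMIs that were not at least 25% higher in the neutro-biased cells were Pclaf, Rrm2 and Slbp in the control and Pclaf, Rrm2, Slbp, Ccne2, Atad2 and E2f8 in the KO. Ung was at 44.3 CPM in neutro-biased GMP-like and 5.05 CPM in neutrophil-like cells of the control (log2 ratio 3.14, 2.05 to 4.48) and at 40.7 and 3.63 CPM in the KO. Gins2, a subunit of GINS, was at 69.1 and 11.5 CPM in the control and at 52.5 and 19.98 CPM in the KO, and Mcm3 at 96.2 and 18.0 CPM and at 102 and 33.9 CPM. Hells was lower as well, at 93.5 and 25.2 CPM and at 99.0 and 25.4 CPM. In contrast Pclaf was at 283 and 319 CPM in the control and 393 and 433 CPM in the KO, Rrm2 at 172 and 147 CPM and at 172 and 177 CPM, and Slbp at 130 and 120 CPM and at 152 and 136 CPM. E2f8 had a log2 ratio of -0.57 (-1.06 to -0.08) in the KO, and of -0.47 (-1.15 to 0.23) in the control, where it had under 100 UMIs. The mitotic list was higher in the neutrophil-like cells too, with summed ratios of -0.48 and -0.54. It stood at 1396 CPM in neutro-biased and 1942 CPM in neutrophil-like cells of the control, and at 1488 and 2166 CPM in the KO. The name neutrophil-like thus does not stand for cells without mitotic transcripts.

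Along the monocytic branch the genotypes parted. Mono-biased GMP-like cells were level with monocyte-like cells in the control, at a log2 ratio of -0.04 (-0.08 to 0.01), with 4 of 38 genes at least 25% higher (17.3% of all genes). Those 4 were Cdca7, Ccne2, Cdc6 and Chaf1b. In the KO the ratio was 0.31 (0.28 to 0.34) with 19 of 38 genes higher (19.5% of all genes). They were the same 4 and Mcm2, Mcm3, Mcm6, Tyms, Rrm1, Rrm2, Ung, Gins2, Hells, Rfc2, Nasp, Cdc45, Tipin, Dscc1 and Pola1; the difference between genotypes was not tested. Cells were therefore binned by the share of their UMIs on granule genes, which falls as monocytes mature. In bins from 0.1 to 0.3%, 0.3 to 1% and 1 to 3% the control and KO had 4611 and 4484, 4354 and 4321, and 3751 and 3697 CPM. Below 0.03% they had 3620 CPM (3375 to 3878) from 31 control cells and 2562 CPM (2446 to 2681) from 89 KO cells, and from 0.03 to 0.1% they had 3692 and 3042 CPM from 74 and 169 cells. The genotypes thus lay apart in the 2 bins with the fewest granule transcripts and close together in the others. In the granulocytic branch the lowest bin had 1308 CPM in the control and 1729 CPM in the KO.

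**Figure D4:**
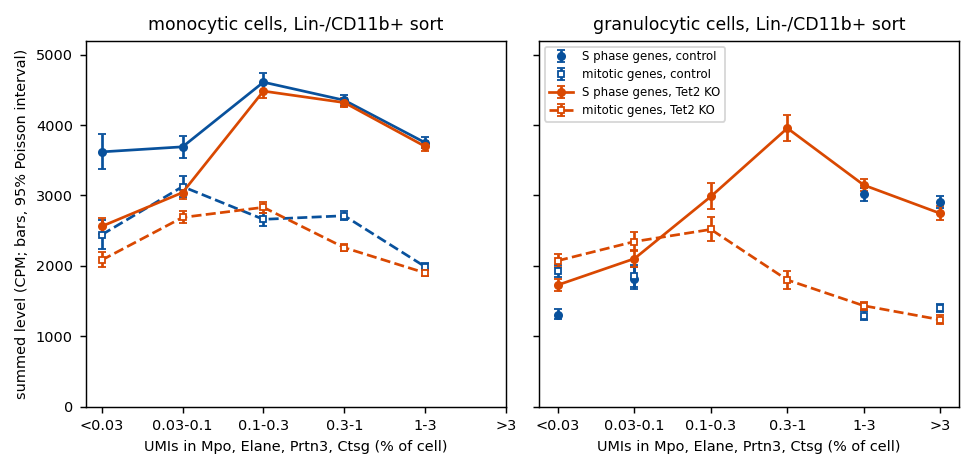
Summed CPM of the 38 genes against bins of the share of UMIs on granule genes, for the monocytic and the granulocytic branch of the Lin-/CD11b+ sort, control and Tet2 KO, with 95% counting intervals; bins with too few cells are left out. On the monocytic side the control and KO points separate below 0.1% (3620 and 2562 CPM in the lowest bin), and on the granulocytic side both descend to 1308 and 1729 CPM.

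Within types the counts of listed genes apart between genotypes varied. In monocyte-like cells (174 control and 365 KO cells) the summed log2 ratio was -0.33 (-0.37 to -0.28), and -0.34 with TMM factors, where the median over all genes was 0.01. Of 33 genes with enough UMIs 0 were at least 25% higher (15.2% of all genes tested) and 18 were lower (11.5% of all genes tested). Prim1 was at 67.2 CPM in the control and 38.8 CPM in the KO, a log2 ratio of -0.79 (-1.19 to -0.39), Dtl at 80.5 and 48.2 CPM, Mcm2 at 59.5 and 37.8 CPM, Rrm2 at 227 and 148 CPM, and Pcna at 270 and 197 CPM. The other 13 were Ung, Cdc45, Cdca7, Rrm1, Hells, Rfc2, Gins2, Tipin, Mcm6, Pola1, Mcm3, Mcm7 and Nasp, so that licensing, strand synthesis and nucleotide supply were all represented. The highest ratios were E2f8 at 0.05, Chaf1b at 0.04 and Pold3 at 0.03. Mitotic genes stood at 2803 and 2625 CPM and granule transcripts at 955 and 802 CPM in these cells. How far the mix of maturation stages enters the difference was not tested.

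In cDC-like cells the summed ratio was -0.18 (-0.26 to -0.10), or -0.09 with TMM factors, and 8 of 22 genes were lower (20.3% of all genes tested) and 4 higher (15.3%). Lower were Dtl (79.4 CPM in the control and 45.9 in the KO), Rrm2 (158.8 and 99.8 CPM), Atad2, Mcm7, Pclaf (641 and 463 CPM), Tyms, Slbp and Rrm1. Higher were Clspn, Fen1, Hells (59.6 and 89.9 CPM) and Mcm3 (53.6 and 82.97 CPM), with the intervals of Clspn, Fen1 and Rrm1 crossing 0.

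In HSPC-like cells of the GMP sort (165 control and 232 KO cells) the summed log2 ratio was -0.20 (-0.24 to -0.16), or -0.13 with TMM factors. Of 38 genes 0 were higher by that fold (6.44% of all genes tested) and 9 were lower (15.2% of all genes tested). Pcna was at 242 CPM in the control and 160 CPM in the KO, a ratio of -0.59 (-0.75 to -0.44). Rrm1, the large subunit of ribonucleotide reductase, was at 117 and 86.7 CPM, and the flap nuclease Fen1 at 81.5 and 62.2 CPM. The others were Mcm2, Mcm6, Mcm7, Exo1, the histone chaperone subunit Chaf1b and Clspn, with the intervals of Exo1 and Clspn crossing 0. The highest ratios were 0.18 for Dscc1, 0.15 for Pold3 and 0.11 for E2f8, each with an interval across 0. Granule transcripts stood at 14210 and 18206 CPM and mitotic genes at 1987 and 1759 CPM in these cells, and their part in the difference was not tested.

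HSPC-like cells from the Lin-/CD11b+ sort, which had fewer granule transcripts, did not show the same ratios. There the sum had a log2 ratio of -0.05 (-0.09 to -0.02), 3 genes were higher (10.9% of all genes tested) and 2 were lower (8.22%). Lower were Cdc45 (32.8 CPM in the control and 23.4 in the KO) and Rrm2 (87.2 and 63.5 CPM). Higher were Exo1 (12.2 and 19.3 CPM), Cdc6 (13.5 and 17.9 CPM, an interval across 0) and Usp1 (52.5 and 67.5 CPM). Blm, the next lowest, had a ratio of -0.31 (-0.76 to 0.15). The mitotic list in these cells had a summed log2 ratio of -0.34.

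In the GMP-like cells the sums were nearly level and single genes differed. In mono-biased cells of the GMP sort (sum -0.02) 1 gene was higher (8.05% of all genes tested) and 0 were lower (10.6%). It was Hells, at 96.4 CPM in the control and 126 CPM in the KO, followed by Ccne2 at 0.29 and Rrm2 at 0.19. The lowest were Ung at -0.31, Pcna at -0.30 and Mcm7 at -0.28. In neutro-biased cells of the GMP sort (sum -0.02) 1 was higher (7.39%) and 3 were lower (11.4%). The higher one was Pclaf, at 207 CPM in the control and 307 CPM in the KO, a log2 ratio of 0.57 (0.48 to 0.65), and the lower ones were Mcm2 (76.5 and 56.9 CPM), Ung (59.9 and 46.6 CPM) and Exo1 (15.2 and 11.8 CPM).

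In the Lin-/CD11b+ sort the mono-biased cells (sum 0.02) had 0 genes higher (11.8% of all genes tested) and 2 lower (7.81%), which were Prim1 at 60.2 and 46.3 CPM and Dtl at 72.0 and 56.7 CPM. Ung followed at -0.28, and Gmnn, Blm and Hells were highest at 0.24, 0.22 and 0.21. The neutro-biased cells (sum 0.07, 35 genes with enough UMIs) had 3 higher (13.2%) and 2 lower (9.92%). Higher were E2f8 (16.2 CPM in the control and 25.6 in the KO), Pclaf (283 and 393 CPM, a log2 ratio of 0.48, 0.35 to 0.60) and Atad2 (48.1 and 64.2 CPM), and lower were Prim1 (50.2 and 35.7 CPM) and Gins2. Pclaf thus had a positive ratio in the neutro-biased cells of both sorts, and Prim1 a negative one in mono-biased, neutro-biased and monocyte-like cells of the Lin-/CD11b+ sort.

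In several of the remaining types the ratios moved with the scaling or rested on few genes. Neutrophil-like cells had a summed log2 ratio of 0.39 that became 0.02 with TMM factors, with 8 of 16 genes higher (48.9% of all genes tested) and 0 lower (6.67%). With TMM factors 4 were higher and 3 lower, with no count over all genes. Atad2 was the highest of them at 20.9 and 61.1 CPM, and the others were Rrm1, Mcm5, Usp1, Rfc2, Pcna, Pclaf and Tipin. Basophil-like cells of the Lin-/CD11b+ sort had a ratio of 0.32, or 0.29 with TMM factors, with 11 of 16 genes higher (18.8%) and 1 lower (9.53%). Higher there were Rrm2 (51.7 and 95.1 CPM), Mcm5 (54.7 and 90.7 CPM), Nasp, Mcm3, Slbp, Cdca7, Mcm7, Mcm6, Gmnn, Tipin and Rrm1, and Rfc2 was lower (231 and 183 CPM). The basophil-like cells of the GMP sort had a ratio of 0.10, with 6 of 30 genes higher (13.9%) and 2 lower (12.8%). Higher were Dtl (41.1 and 63.9 CPM), Ung, Gins2, Hells, Gmnn and Pold3, and lower were E2f8 and Mcm6 (157 and 122 CPM), with the intervals of Ung, Gins2 and Pold3 crossing 0.

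B-cell-like cells had a summed ratio of 0.25, or 0.15 with TMM factors, with 4 of 15 genes higher (23.7%) and 1 lower (7.89%). Higher were Pclaf (335 and 577 CPM), Tyms, Gmnn and Rrm2, and Cdca7 was lower (127 and 74.2 CPM). Plasma-like cells had a ratio of 0.53, or 0.15 with TMM factors, with 16 of 17 genes higher and 0 lower, where 63.1% of all genes tested were higher and 3.61% lower. With TMM factors 5 of the 17 were higher, with no count over all genes. Rrm2 (20.95 and 40.3 CPM), Nasp (26.4 and 46.2 CPM) and Hells had the highest ratios, and the others were Mcm7, Mcm5, Tyms, Mcm3, Tipin, Fen1, Mcm6, Cdca7, Slbp, Rfc2, Gmnn, Pclaf and Rrm1. The pDC-like cells had a summed ratio of 0.03 (-0.02 to 0.09), with 5 of 28 genes higher (11.5%) and 2 lower (11.9%). Higher were Atad2 (83.95 and 117.5 CPM), Gmnn (174 and 242 CPM), Mcm2, Mcm4 and Gins2, and lower were Cdc45 (75.8 and 49.2 CPM) and Rad51ap1, with the intervals of Mcm2, Mcm4, Gins2 and Rad51ap1 crossing 0.

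The listed genes were next set against mitotic genes in the same cells, as a readout the list did not use. With cells thinned to 5000 UMIs, cells with at least 10 listed genes and at least 3 mitotic UMIs made up 48.4% of control GMPs, 51.3% of KO GMPs, 39.4% of control and 39.4% of KO Lin-/CD11b+ cells. Cells with at least 10 listed genes but fewer mitotic UMIs made up 19.3%, 16.6%, 14.2% and 13.9%, and cells with fewer of both made up 11.4%, 9.82%, 24.4% and 23.9%. The cells with fewer of both were also the shallowest, with a median of 13008, 12090, 8090 and 7375 UMIs before thinning. Free RNA and depth can enter these shares, and their part was not tested.

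Among HSPC- and GMP-like cells, those with at least 3 mitotic UMIs (720, 1525, 681 and 952 cells) were compared with those with 0 (59, 104, 73 and 160 cells). The summed log2 ratio was 0.22 (0.12 to 0.32), 0.33 (0.25 to 0.40), 0.45 (0.36 to 0.54) and 0.80 (0.73 to 0.87). At least 25% higher were 14 of 32, 14 of 37, 17 of 33 and 27 of 36 genes with enough UMIs, against 28.5%, 29.1%, 30.2% and 31.1% of all genes tested. Lower by that fold were 6, 5, 4 and 1 of them, against 11.8%, 13.3%, 19.4% and 21.8%. The share of listed genes that were higher lay above the background in every library, and the share that were lower lay above it in control GMPs, near it in KO GMPs and below it in the Lin-/CD11b+ libraries.

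Higher by that fold in all 4 libraries were 9 genes, Clspn, Fen1, Pclaf, Pola1, Rad51ap1, Rrm1, Rrm2, Slbp and Tyms. In 3 libraries there were Atad2, Ccne2, Cdc45 and E2f8, and in 2 there were Cdc6, Gmnn, Mcm4, Mcm5, Nasp, Pcna, Pold3 and Usp1. Blm, Chaf1b, Exo1, Gins2, Hells, Mcm3, Tipin and Ubr7 were higher in 1 library. Lower by that fold were Ung in 4 libraries, Cdca7 in 3, Mcm2, Mcm3, Mcm4 and Prim1 in 2 and Nasp in 1.

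Pclaf was at 416 CPM in cells with and 94.9 CPM in cells without mitotic UMIs of control GMPs, at 468 and 80.8 CPM in KO GMPs, at 554 and 87.7 CPM in control and at 564 and 67.5 CPM in KO Lin-/CD11b+ cells. Its log2 ratios were 2.13, 2.53, 2.66 and 3.06. In KO Lin-/CD11b+ cells Ccne2 had a higher ratio still (3.33, 1.76 to 5.63), which rests on 3 UMIs in the cells without. Tyms had 0.82, 1.03, 0.88 and 1.45, and Rrm2 had 0.43, 1.17, 1.33 and 2.12. Ung went the other way in each library, at 45.8 and 84.7 CPM in control GMPs and with ratios of -0.89, -0.98, -0.46 and -0.92. Cdca7 had -0.45, -0.42, -0.64 and -0.25, and Mcm2 -0.40, -0.45, -0.25 and -0.08. The intervals of Ung in control Lin-/CD11b+ cells, of Cdca7 in KO Lin-/CD11b+ cells and of Mcm2 in all 4 libraries crossed 0. Ung was thus low both in neutrophil-like cells and in cells with mitotic UMIs.

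**Figure D5:**
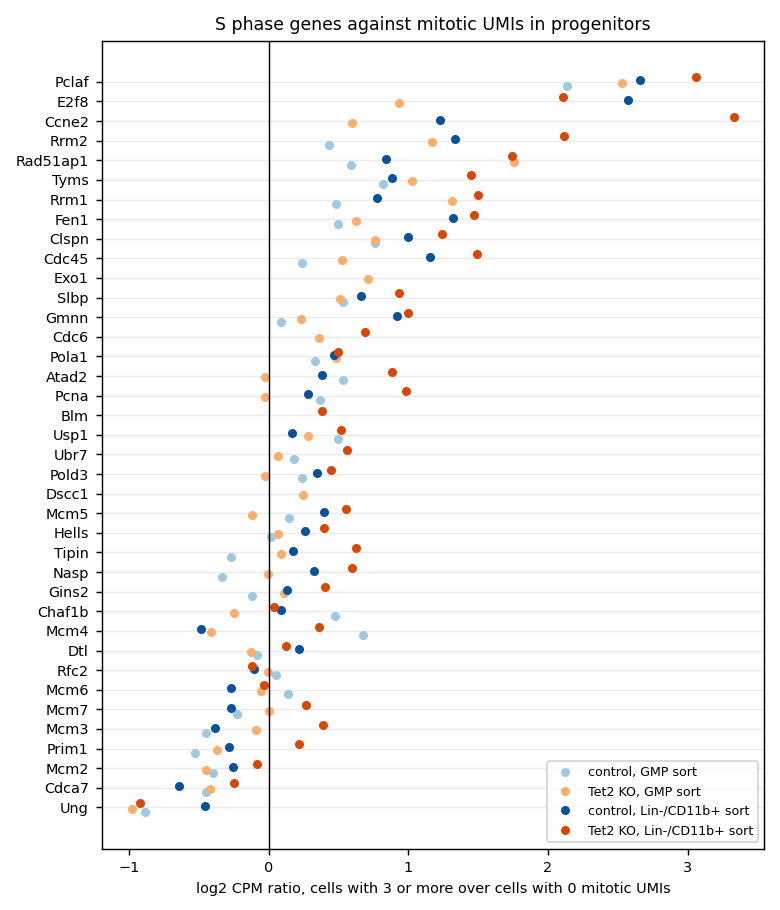
Log2 ratio in CPM of cells with at least 3 mitotic UMIs over cells with 0, for the listed genes in each library, HSPC- and GMP-like cells thinned to 5000 UMIs. Pclaf lies highest of the well-covered genes at 2.13 to 3.06, and Ung lies below 0 in all 4 libraries.

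Finally each gene was read against the rest of its own list. Cells with UMIs of at least 15 of the other 37 genes were compared with cells with at most 7, in the same thinned HSPC- and GMP-like cells. This is a description with no test, since the cells were chosen by listed genes. The ratio was not computed for genes outside the list, so how many other genes were also higher in these cells is not known. All 38 genes had a ratio above 0 in each of the 4 libraries, some with intervals across 0. The exception was Dscc1 in the control Lin-/CD11b+ library, where the few-gene cells had 0 UMIs of it and no ratio was formed. Rrm2 had log2 ratios of 2.02, 1.88, 2.10 and 2.86, and Pcna 1.68, 1.37, 1.97 and 2.11. Ung, which was below 0 against mitosis in each library, had 1.87, 1.66, 1.91 and 2.30. Ubr7, a ubiquitin ligase for histones, was among the lowest with 0.68, 0.43, 0.22 and 0.48, each with an interval across 0, and Usp1 had 0.67, 0.38, 1.03 and 0.74. Rfc2, one of the more abundant genes, had 0.93, 0.71, 0.82 and 0.60. Besides Ubr7, intervals crossed 0 for Pold3, Exo1, Dscc1, Blm and E2f8 in control GMPs. They did so for Pold3, Blm and Usp1 in KO GMPs and for Blm in control Lin-/CD11b+ cells.

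Further genes of the cell cycle were counted as lists that do not contain the 38. In the GMP sort 0 of 50 other replication genes were higher in the KO and 3 were lower, where 4.28% of all genes were higher and 11.9% lower, with the lowest ratios for Brca1 (-0.52) and Brca2 (-0.42) and the highest for Lig1 (0.16) and Rpa3 (0.13). The same list in the Lin-/CD11b+ sort had 3 higher and 0 lower, where 17.3% of all genes were higher and 4.44% lower, with Donson (0.71) and E2f2 (0.69) highest and Tk1 (-0.31) and Dbf4 (-0.20) lowest. Of 22 mitotic genes 0 were higher and 1 was lower in the GMP sort (Kif11, 26.7 and 21.0 CPM), and 0 and 0 in the other. Of 8 CDK inhibitors and quiescence genes with enough UMIs 0 were higher and 3 lower in the GMP sort, and 0 and 1 in the Lin-/CD11b+ sort. Cdkn1a, the p21 inhibitor that binds PCNA, was at 11.6 CPM in control GMPs, 5.73 in KO GMPs, 26.0 in control and 17.5 in KO Lin-/CD11b+ cells, with log2 ratios of -1.02 (-1.28 to -0.76) and -0.58 (-0.74 to -0.41). Of 11 G1 cyclins and kinases 0 were higher and 2 lower in the GMP sort, led by Ccnd1 (-0.56) and Myc (-0.39), and 0 and 0 in the other.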

How the data were processed

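Cells were sorted from bone marrow and profiled with a droplet 3' kit. The deposited matrix holds raw UMI counts per gene and cell that the authors made, and the submitters' processing notes name Cell Ranger 3.1.0, build mm10 and Seurat. Cells with under 5000 UMIs were absent. The study states an upper limit of 5% mitochondrial UMIs, but 413 of 8969 deposited cells exceed it and were kept. Counts were summed over cells and scaled to CPM. Exact intervals were used throughout: Poisson for sums, binomial (Clopper-Pearson) for shares and conditional binomial for log2 ratios. Intervals cover counting error only. A gene entered a comparison with at least 100 UMIs over both sums and was counted when at least 25% higher or, by the same fold, 20% lower, and a type needed 50 cells in a library.

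Types were assigned per cell from fixed markers. The assignment rule and the granule share of 0.2% that parts GMP-like from mature cells were set after marker levels had been seen, and 481 of 4986 myeloid cells lay between 0.1% and 0.4%. Doublets were kept and no caller was run. All 38 genes are accounted for. In comparisons given with a count, the rule names genes past that fold and the 3 highest and lowest, of which some lowest or highest are left out, and of other lists the 2 highest and lowest. The members and lists were chosen with earlier results of these data known. Statistics were checked on simulated counts. Python 3.11.15, scanpy 1.11.5 and edgeR 4.0.16 (TMM factors only) were used. Alternatives were other scalings, cell filters, thinning, Leiden clusters and folds.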

Additional observations from a re-analysis of the deposited data

Results flagged for a closer look

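The summed level of the 38 genes had opposite signs in the sorts, with a log2 ratio of Tet2 KO over control of -0.038 in the GMP sort and 0.020 in the Lin-/CD11b+ sort, and intervals for counting error on either side of 0. Usp1 did so as well, with -0.12 in the GMP sort and 0.21 in the Lin-/CD11b+ sort. Neither difference was tested, since each genotype and sort had 1 library, and the signs of the sums changed with the scaling.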

How the results depend on the processing

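No paired analysis was possible because each group held 1 library and all libraries carried the same replicate number, which also leaves no replicate to drop. Under other settings 47 recomputed values stayed within the counting interval of the reported value, and 35 moved outside it. The sign of the value changed in 10 of these settings, some of them within the interval, and in 1 of those chosen after seeing the data, where 22 stayed within the interval and 1 moved. The values outside include the shares of cells at cuts of 5 and 15 genes or without thinning, and the count at a fold of 1.5. Those are other quantities, so their move does not measure instability. The cause of the other shifts was not tested.

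For the summed log2 ratio of KO over control in all cells, TMM factors gave 0.025 in the GMP sort and -0.061 in the Lin-/CD11b+ sort. The Lin-/CD11b+ value also changed sign as a mean over cells (-0.043), without the 5% of cells with most UMIs (-0.012) and with thinned cells (-0.037). The GMP value was -0.052 without those cells, -0.069 without Pclaf and -0.0100 with thinned cells. In neutro-biased cells of the GMP sort it was 0.026 with TMM factors, -0.047 without the deepest cells, -0.070 without Pclaf, 0.027 thinned and -0.067 in Leiden clusters. In those of the Lin-/CD11b+ sort it was 0.016 without the deepest cells, 0.025 without Pclaf and -0.033 in Leiden clusters. Mono-biased cells gave -0.045 without Pclaf in the GMP sort and -0.019 in Leiden clusters of the Lin-/CD11b+ sort. HSPC-like cells of the GMP sort gave -0.13 with TMM factors and -0.14 in Leiden clusters, and those of the Lin-/CD11b+ sort -0.10 as a mean over cells and -0.092 thinned. Monocyte-like cells gave -0.23 with a granule share of 0.4% as the limit, a setting added after seeing the data. At a fold of 1.5 the count of genes apart in the GMP sort was 0.

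The share of cells with at least 5 listed genes was 93.4%, 95.7%, 77.3% and 76.9% in control GMPs, KO GMPs, control and KO Lin-/CD11b+ cells, and with at least 15 genes 26.8%, 23.9%, 26.2% and 25.7%. Without thinning the share with at least 10 was 94.2%, 95.9%, 74.2% and 72.1%.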
